A study of Arabidopsis with 2 samples.

Results

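The genes described here are the 48 nuclear genes for proteins of the photosynthetic membrane (the thylakoid) that were listed by locus identifier: 18 genes for light-harvesting chlorophyll-binding proteins, 22 for subunits of photosystem I (PSI) and photosystem II (PSII), 6 for electron carriers and 2 for ATP synthase. Each of the 48 loci had a probe among the 21500 gene probes of a 2-colour Arabidopsis oligonucleotide microarray. The RNA compared came from torpedo stage embryos of the cuc1-1 cuc2-1 double mutant (cuc1 cuc2), whose parents carried cuc1-1 and segregated for cuc2-1, and, as control, from torpedo stage embryos of the wild type accession Ler. All parents grew on soil in continuous light, without a treatment. About 100 embryos were pooled per genotype, excised in 6% glucose and fixed before extraction. A single pool per genotype was hybridized, with the dyes exchanged in a second hybridization. The pairing of genotype with pool, parents and extraction therefore cannot be told apart from the genotype itself, and p-values below come from the scanner software's error model of single arrays.

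In plants the chlorophyll of PSI and PSII is bound partly by subunits made in the chloroplast and partly by antenna proteins encoded by nuclear gene families, LHCA around PSI and LHCB around PSII. Light energy collected there drives electrons from water through PSII, the cytochrome b6f complex and plastocyanin to PSI, ferredoxin and NADPH, and ATP synthase uses the proton gradient that results. Arabidopsis embryos turn green while their chloroplasts develop, and lose chlorophyll again as the seed matures. CUC1 and CUC2 encode NAC transcription factors of the cotyledon boundary, and double mutant embryos form fused cotyledons without a shoot meristem. In whole embryos, a change in the proportion of green cells and a change in RNA per cell cannot be told apart.

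The photosynthetic genes lay slightly higher in cuc1 cuc2 embryos as a group. The median of the 48 mean log2 ratios (cuc1 cuc2 over Ler, mean of both hybridizations) was 0.28, or 1.21-fold, whereas the median of all gene probes was -0.00059. The median of the members was 0.24 in the hybridization with cuc1 cuc2 in Cy5 and 0.32 in that with cuc1 cuc2 in Cy3, so the direction did not turn with the dye. The members were chosen with earlier results of these data known, so the shares that follow are descriptions. The ratio was above 0 in both hybridizations for 45 of the 48 members (93.8%), against 23.1% of all gene probes. It was above 0.2 in both for 26 members (54.2%), against 4.83% of all gene probes, a limit chosen after the data were seen. With median centring in place of the dye curve correction, 24 members and 11.2% of all gene probes were above 0 in both, while the median of the means stayed at 0.28.

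By the study's selection rule turned to both directions, a gene was called when the deposited p-value was under 0.01 with the same sign in both hybridizations. Called higher in cuc1 cuc2 were 5 of 48 members (10.4%), against 0.502% of all gene probes. These were the antenna gene LHCB1.1, the PSI subunit gene PSAN, the PSII subunit gene PSBS, the ferredoxin-NADP reductase gene FNR2 and the ATP synthase gene ATPD. With Benjamini-Hochberg adjustment per array and a limit of 0.05, LHCB1.1 alone of the members was called (0.181% of all gene probes). None of the members was called lower, where 0.242% of all gene probes were, and none was called lower at a limit of 0.05 either, where 13 members were called higher (1.1% of all gene probes, and 0.474% called lower). In single hybridizations, p was under 0.01 with a higher ratio for 9 members with cuc1 cuc2 in Cy5 (0.921% of all gene probes) and for 7 with cuc1 cuc2 in Cy3 (1.11% of all gene probes).

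**Figure D1:**
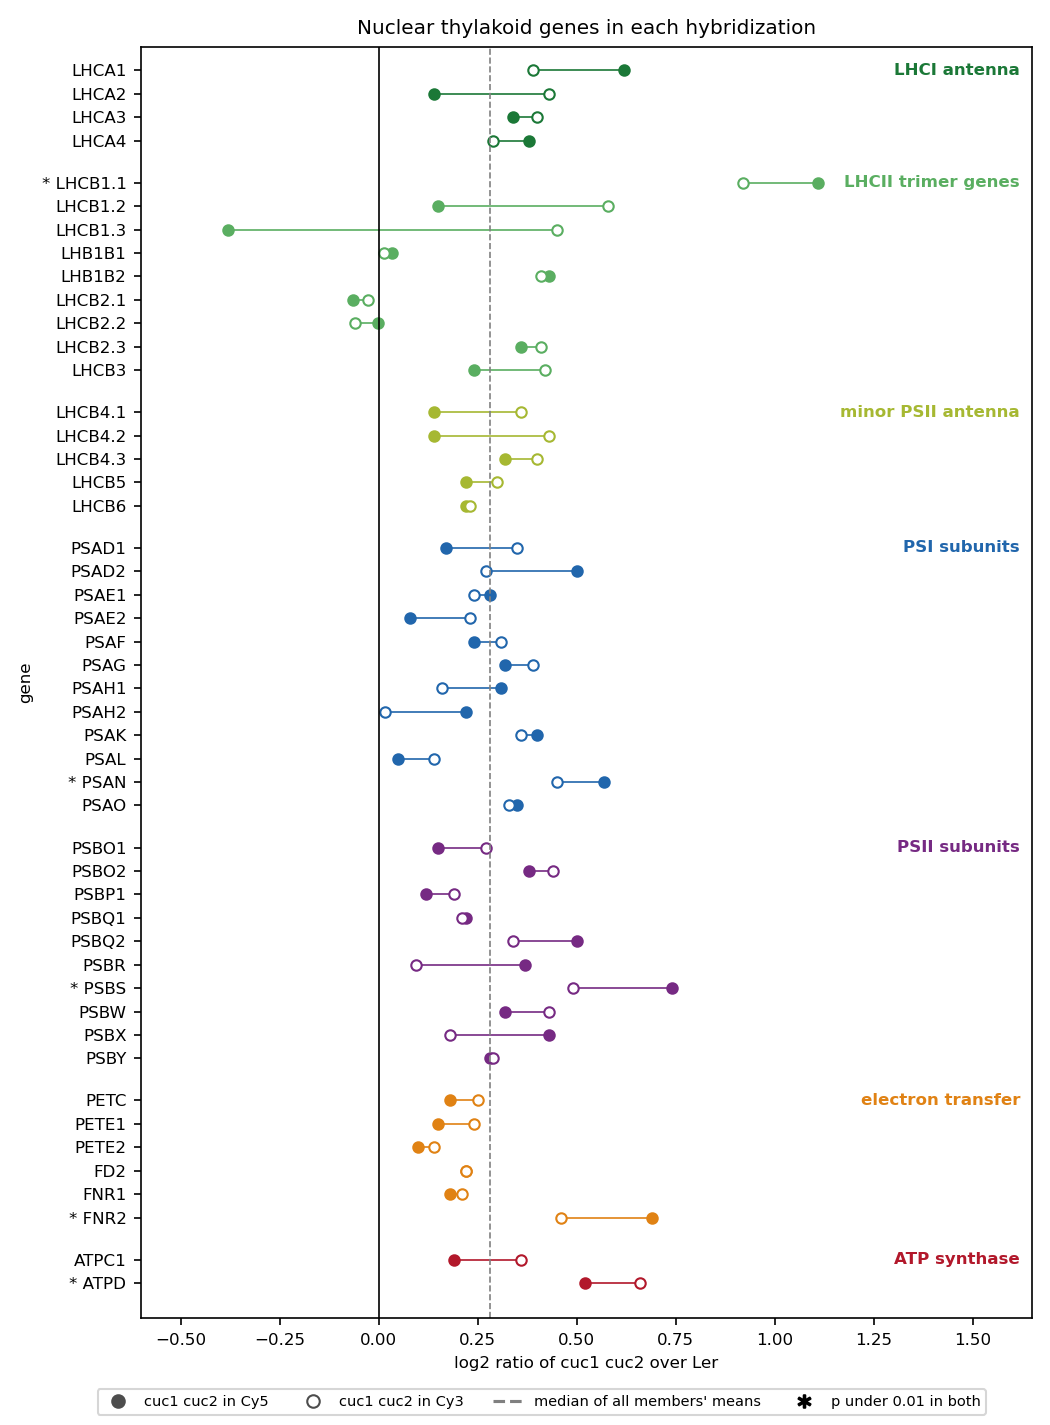
Log2 ratio of cuc1 cuc2 over Ler (horizontal axis) for the 48 members (rows, grouped by complex), with a filled point for the hybridization with cuc1 cuc2 in Cy5 and an open point for that with cuc1 cuc2 in Cy3. In 45 rows both points lie right of 0, and the 3 exceptions are LHCB1.3, LHCB2.1 and LHCB2.2 among the LHCII genes.

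All 48 probes were well above background in both channels of both hybridizations, and their dye-normalized signals spanned 547 to 176663. Over all gene probes, between 87.5% and 88.8% were well above background in a channel. Dye-normalized signals of 1 probe can be compared between genotypes, whereas signals of different probes do not rank genes by expression. The software's error of a single log2 ratio was between 0.16 and 0.29 for the members, and the smallest member ratio with a p under 0.01 in an array was 0.43. Most members had ratios below that size: 31 of 48 had a mean log2 ratio from 0.2 to 0.45. The mean was more than 2 errors above 0 for 32 members, and the share of all gene probes beyond that limit is not given. This error of the mean takes the errors of both arrays as independent, although the arrays share their extracts.

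The 4 LHCA genes of the PSI antenna (LHCI) were all higher in cuc1 cuc2 by ratio, and none was called. Their mean log2 ratios lay between 0.29 and 0.51 with a median of 0.35 (1.28-fold), and all 4 were above 0 in both hybridizations. LHCA1 (AT3G54890), which binds PSI next to the PSAG side of the core, gave signals of 82193 and 79877 in cuc1 cuc2 and of 53485 and 60810 in Ler. Its log2 ratios were 0.62 (deposited p 0.000253) and 0.39 (deposited p 0.0176), so it passed the limit in 1 hybridization and missed it in the other. LHCA4, the partner of LHCA1 in a dimer, had ratios of 0.38 and 0.29, and LHCA3 had 0.34 and 0.40. LHCA2 was less even, with 0.14 with cuc1 cuc2 in Cy5 and 0.43 with cuc1 cuc2 in Cy3.

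The 9 genes for the trimeric PSII antenna (LHCII) varied most. Their mean log2 ratios ran from -0.046 to 1.02, with a median of 0.33, and 6 of the 9 were above 0 in both hybridizations. The median was 0.15 with cuc1 cuc2 in Cy5 and 0.41 with cuc1 cuc2 in Cy3, and it was 0.18 when LHCB1.1 was left out. LHCB1, LHCB2 and LHCB3 proteins form the LHCII trimers, the most abundant light harvesters of green tissue.

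LHCB1.1 (AT1G29920, also CAB2) had the highest ratio of all members. Its signals were 63539 and 69894 in cuc1 cuc2 and 29357 and 36815 in Ler. The log2 ratio was 1.11 ± 0.18 (deposited p 1.04e-09) with cuc1 cuc2 in Cy5 and 0.92 ± 0.18 (deposited p 1.66e-07) with cuc1 cuc2 in Cy3, each with the software's error, and the mean was 1.02 (2.03-fold). It ranked at place 56 from the top among the 21500 gene probes by mean ratio.

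The genes next to LHCB1.1 did not share that value. In the RefSeq annotation (TAIR10.1) LHCB1.2 (AT1G29910, CAB3), LHCB1.1 and LHCB1.3 (AT1G29930, CAB1) lie side by side on chromosome 1, with no other protein-coding gene between them. LHCB1.2 gave 63516 and 86399 in cuc1 cuc2 and 57441 and 57924 in Ler, with log2 ratios of 0.15 (deposited p 0.375) and 0.58 (deposited p 0.000622). LHCB1.1 exceeded LHCB1.2 by 0.97 in the log2 ratio with cuc1 cuc2 in Cy5 and by 0.35 with cuc1 cuc2 in Cy3. The mean of these differences was 0.66, with an error of 0.17. Here and for the paralogs below, this error combines the software's errors of both genes. It does not measure the spread between the hybridizations. LHCB1.3 had the dimmest probe of all members, with 547 and 777 in cuc1 cuc2 and 714 and 568 in Ler. Its log2 ratios had opposite signs, -0.38 and 0.45, and it was the only member whose hybridizations differed by more than 2 errors (0.84).

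The other LHCB1 copies form a pair of neighbours on chromosome 2. LHB1B2 (AT2G34420) gave 103018 and 109265 in cuc1 cuc2 and 76400 and 82332 in Ler. Its log2 ratios of 0.43 (deposited p 0.00948) and 0.41 (deposited p 0.0139) put it just outside the call. LHB1B1 (AT2G34430), its neighbour, gave 2141 and 1331 in cuc1 cuc2 and 2093 and 1318 in Ler, and its ratios were 0.033 and 0.014. LHB1B2 exceeded LHB1B1 by 0.40 in the mean of both hybridizations, with an error of 0.17.

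The 3 LHCB2 genes also split. LHCB2.1 (AT2G05100) and LHCB2.2 (AT2G05070) are neighbours on chromosome 2 and were the only members with ratios below 0 in both hybridizations. LHCB2.1 gave 5264 and 4894 in cuc1 cuc2 and 5506 and 4987 in Ler, and LHCB2.2 gave 2343 and 2090 in cuc1 cuc2 and 2343 and 2180 in Ler. These differences were far smaller than the error, with p between 0.696 and 0.998. LHCB2.3 (AT3G27690), on another chromosome, gave 2557 and 2722 in cuc1 cuc2 and 1991 and 2044 in Ler. Its log2 ratios were 0.36 (deposited p 0.0431) and 0.41 (deposited p 0.0159), and it exceeded LHCB2.1 by 0.43 and LHCB2.2 by 0.42 in the mean, each with an error of 0.17. LHCB3, the single gene for the third trimer protein, had ratios of 0.24 and 0.42. LHCB copies are close relatives, and how far each probe also binds RNA of another copy was not tested.

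**Figure D2:**
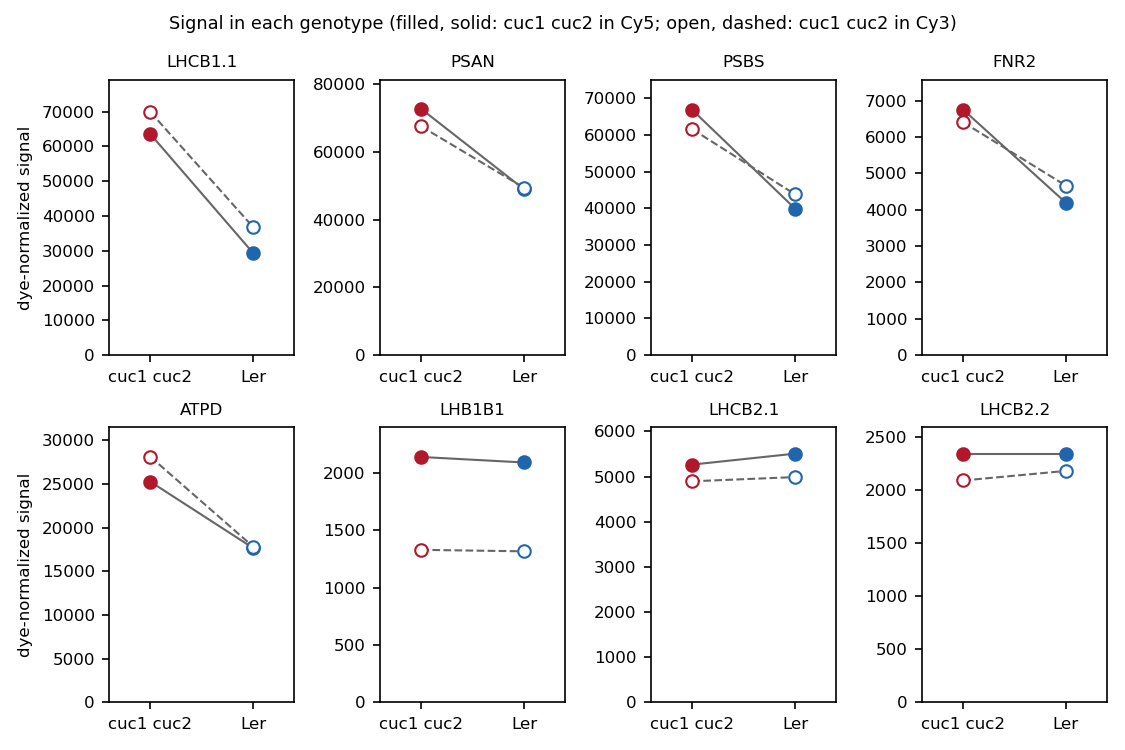
Dye-normalized signals (vertical axes starting at 0) in cuc1 cuc2 (left, red) and Ler (right, blue) for the 5 members called higher and for LHB1B1, LHCB2.1 and LHCB2.2, with a line joining the channels of 1 hybridization. The 5 called genes were picked by the ratios of these same signals, so their higher cuc1 cuc2 points are no separate evidence. LHCB2.1 gave 5264 and 4894 in cuc1 cuc2 and 5506 and 4987 in Ler.

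The minor PSII antenna proteins LHCB4 (CP29), LHCB5 (CP26) and LHCB6 (CP24) sit as single molecules between the trimers and the PSII core. Their 5 genes lay closer together than the trimer genes, with mean log2 ratios between 0.22 and 0.36 and a median of 0.26. All 5 were above 0 in both hybridizations, and none was called. LHCB4.3 had the highest mean of them, with 14653 and 14877 in cuc1 cuc2 and 11722 and 11245 in Ler, and with ratios of 0.32 (deposited p 0.0514) and 0.40 (deposited p 0.015). LHCB6 had the lowest, with 127114 and 141542 in cuc1 cuc2 and 109045 and 121048 in Ler. The ratios of LHCB6, 0.22 and 0.23, were nearly equal in both dye orientations.

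All 12 genes for nuclear PSI subunits had ratios above 0 in both hybridizations. Their mean log2 ratios ran from 0.093 to 0.51 with a median of 0.27 (1.2-fold). PSAN (AT5G64040), a lumenal subunit involved in docking plastocyanin, gave 72598 and 67447 in cuc1 cuc2 and 48914 and 49375 in Ler. Its ratios were 0.57 (deposited p 0.000721) and 0.45 (deposited p 0.00689), a mean of 0.51 (1.42-fold). PSAK and PSAO, small membrane subunits, had ratios of 0.40 and 0.36 for PSAK and 0.35 and 0.33 for PSAO. PSAG, which lies at the LHCI side of the core, had 0.32 and 0.39. PSAF, which helps bind plastocyanin, had 0.24 and 0.31.

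At the lower end of the PSI genes were PSAL and PSAH2, whose products lie where LHCII can dock on PSI. PSAL gave 5101 and 5633 in cuc1 cuc2 and 4933 and 5118 in Ler, and its ratios were 0.048 and 0.14. PSAH2 gave 3707 and 4170 in cuc1 cuc2 and 3187 and 4128 in Ler, and its ratios were 0.22 and 0.015. Neither mean ratio exceeded 2 errors. The paralog PSAH1 had 0.31 and 0.16. PSAD and PSAE form the stromal face where ferredoxin docks. PSAD2 had 0.50 (deposited p 0.00275) with cuc1 cuc2 in Cy5 and 0.27 with cuc1 cuc2 in Cy3, and PSAD1 had 0.17 and 0.35. PSAE1 had 0.28 and 0.24, and PSAE2 had 0.078 and 0.23. In none of the PSAD, PSAE and PSAH pairs did the paralogs differ by more than 2 errors in the mean ratio.

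The 10 genes for nuclear PSII subunits were likewise all above 0 in both hybridizations, with mean log2 ratios between 0.16 and 0.62 and a median of 0.30 (1.23-fold). PSBS (AT1G44575), which switches the antenna to heat dissipation in excess light, had the highest ratio among them. It gave 66783 and 61547 in cuc1 cuc2 and 39931 and 43803 in Ler. Its ratios were 0.74 (deposited p 1.61e-05) and 0.49 (deposited p 0.00333), and the mean of 0.62 was 1.53-fold. PSBX, PSBW and PSBY are small membrane subunits. PSBW gave the brightest probe of all members, with 171096 and 176663 in cuc1 cuc2 and 137444 and 131452 in Ler, and ratios of 0.32 and 0.43. PSBX had ratios of 0.43 and 0.18, and PSBY had 0.28 and 0.29. PSBR, which helps the oxygen-evolving proteins assemble, had 0.37 and 0.094.

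The oxygen-evolving proteins PSBO, PSBP and PSBQ shield the manganese cluster of PSII on the lumen side. Their 5 genes had a median of 0.21. PSBO2 (AT3G50820) gave 15759 and 18841 in cuc1 cuc2 and 12097 and 13851 in Ler. Its ratios were 0.38 (deposited p 0.0215) and 0.44 (deposited p 0.00769), against 0.15 and 0.27 for its paralog PSBO1. PSBQ2 (AT4G05180) gave 23192 and 24433 in cuc1 cuc2 and 16379 and 19249 in Ler. Its ratios were 0.50 (deposited p 0.00273) and 0.34 (deposited p 0.0373), against 0.22 and 0.21 for PSBQ1. The ratio of the second copy exceeded that of the first in both hybridizations in both families, by 0.20 in the mean for PSBO and by 0.21 for PSBQ, each with an error of 0.17 and so within 2 errors. PSBP1 had ratios of 0.12 and 0.19, the lowest mean of the PSII genes.

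The 6 electron transfer genes had a median of 0.21 (1.15-fold), the lowest of the complexes in the mean of both hybridizations, though the LHCII trimer median was lower with cuc1 cuc2 in Cy5 (0.15 against 0.18) and without LHCB1.1 (0.18). All 6 were above 0 in both hybridizations. FNR2 (AT1G20020), a reductase that passes electrons from ferredoxin to NADP, stood apart from the other 5. It gave 6752 and 6405 in cuc1 cuc2 and 4190 and 4662 in Ler. Its ratios were 0.69 (deposited p 7.02e-05) and 0.46 (deposited p 0.00626), a mean of 0.57 (1.49-fold). The paralog FNR1 gave 12653 and 12141 in cuc1 cuc2 and 11144 and 10525 in Ler, with ratios of 0.18 and 0.21. FNR2 exceeded FNR1 by 0.51 with cuc1 cuc2 in Cy5 and by 0.25 with cuc1 cuc2 in Cy3, a mean of 0.38 with an error of 0.17. The Rieske iron-sulfur protein gene PETC had 0.18 and 0.25, and the leaf ferredoxin gene FD2 had 0.22 in each. The plastocyanin genes had 0.15 and 0.24 for PETE1 and 0.10 and 0.14 for PETE2. Only FNR2 of the 6 had a mean ratio beyond 2 errors.

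Of the nuclear genes for chloroplast ATP synthase, ATPD (AT4G09650) encodes the delta subunit and ATPC1 the gamma subunit. ATPD gave 25255 and 28108 in cuc1 cuc2 and 17667 and 17826 in Ler. The ratios were 0.52 (deposited p 0.00211) and 0.66 (deposited p 0.000113), a mean of 0.59 (1.50-fold). ATPC1 gave 24203 and 24142 in cuc1 cuc2 and 21262 and 18786 in Ler, with ratios of 0.19 and 0.36. ATPC1 was the only member with a spot that the software marked as uneven, as an outlier or as saturated.

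The medians of the complexes differed by at most 0.22 in the mean of both hybridizations. The SD of the members' mean ratios within a complex was 0.053 for the minor antenna, 0.095 for LHCI and 0.34 for the LHCII trimer genes. Of the 21 pairs of complexes, 12 differed in the same direction in both hybridizations and 9 turned their sign with the dye. The pairs share the medians of the same 7 complexes and are not independent. LHCI exceeded the electron transfer genes by 0.18 in the median with cuc1 cuc2 in Cy5 and by 0.17 with cuc1 cuc2 in Cy3. The largest difference was that of the electron transfer genes minus the 2 ATP synthase genes, -0.17 and -0.28, and the minor antenna minus ATP synthase gave -0.13 and -0.15. PSI minus PSII was -0.048 and 0.006, and the sign turned. With 1 pool per genotype there is no test of these differences.

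**Figure D3:**
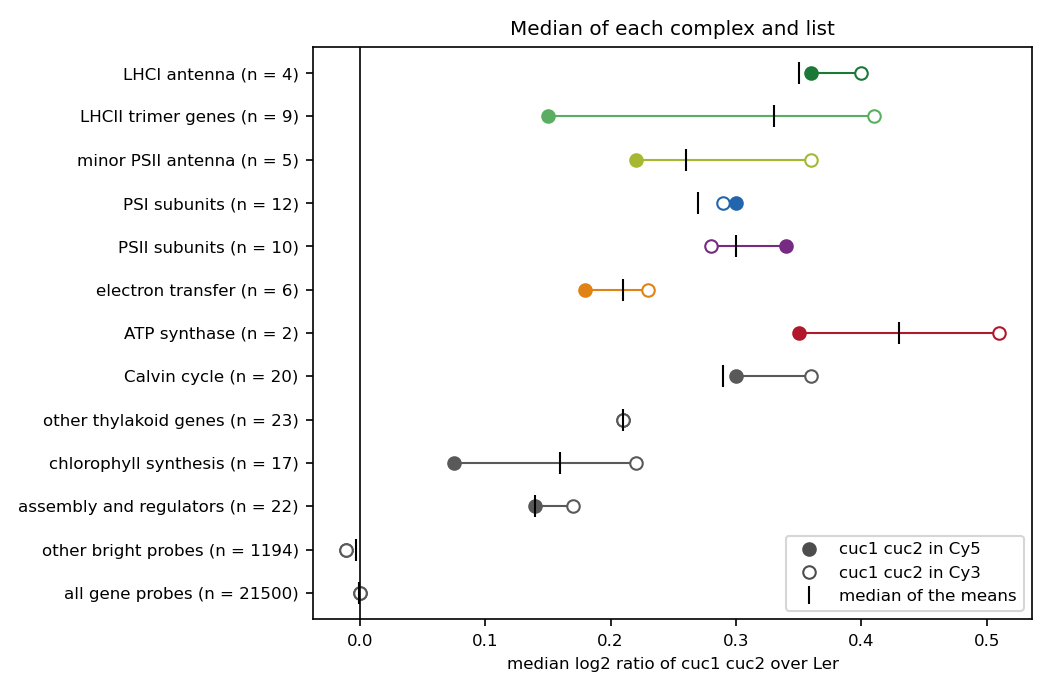
Median log2 ratio of cuc1 cuc2 over Ler (horizontal axis) for each complex of the members, for the other lists of photosynthesis genes, for other bright probes and for all gene probes, with the number of probes in brackets. All 7 complexes lie right of 0 in both hybridizations, from 0.21 to 0.43 in the median of the means, and all gene probes lie at 0.

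The members are bright, and 38 of the 48 had a brightness (geometric mean of the 4 dye-normalized signals) of 10000 or more. The 1194 other gene probes in that range, a background chosen after the data were seen, had a median log2 ratio of -0.0033. All 38 bright members were above 0 in both hybridizations, against 33.7% of those other probes, 24 were above 0.2 in both (63.2%), against 6.95%, and 4 were called higher (10.5%), against 1.34%. The remaining 10 members had a median of 0.10, and 7 of them (70.0%) were above 0 in both. Among other probes, the share above 0 in both was 23.8% to 32.3% in the brightness classes from 300 to 10000. Across members the mean ratio had a Pearson correlation of 0.37 with log brightness (48 probes from 2 arrays). By brightness class, 20 of 48 members were above the 95th percentile of the other probes, as 5.02% of the other probes were. The software's error was near 0.12 for the mean of a bright probe. All 5 members with a mean under 0.1 (LHCB1.3, LHB1B1, LHCB2.1, LHCB2.2 and PSAL) were among the 10 dimmer ones.

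**Figure D4:**
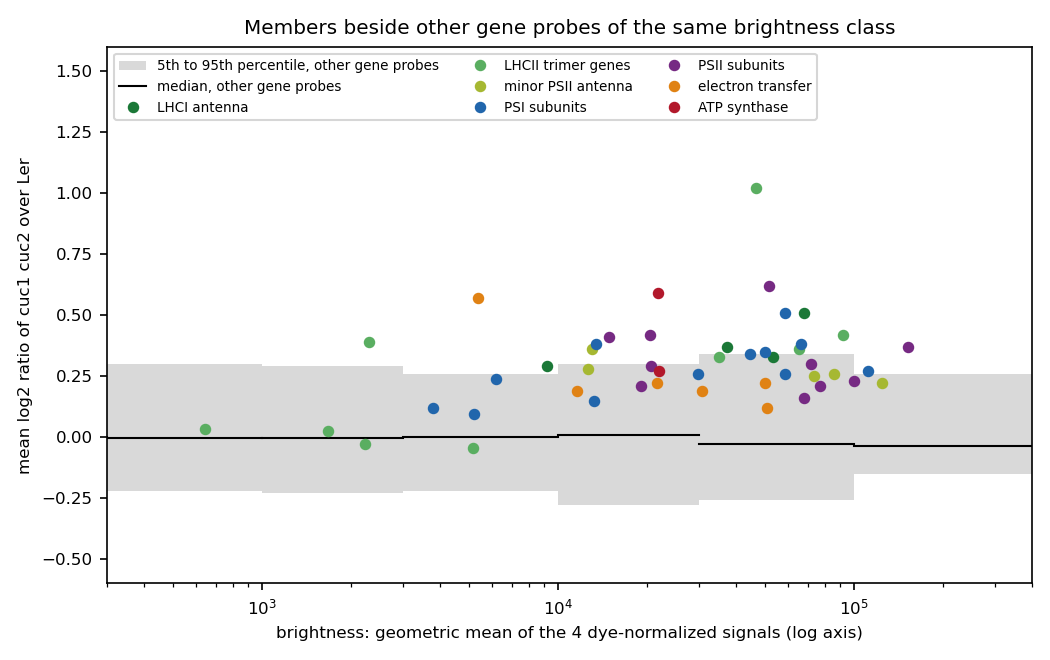
Log2 ratio of cuc1 cuc2 over Ler, averaged over both hybridizations (vertical axis), against brightness (horizontal log axis) for the 48 members, coloured by complex, over the 5th to 95th percentile (grey) and median (black) of the other gene probes in each brightness class. The median of the other probes stays near 0 at every brightness, while all 38 members at 10000 or more lie above 0.

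The order of the members was moderately alike in the hybridizations. Across the 48 members, which share both extracts, the ratios of the hybridizations had a Pearson correlation of 0.572 and a Spearman correlation of 0.465, and the Pearson value was 0.415 without LHCB1.1. The median absolute difference between hybridizations was 0.092.

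Lists of other photosynthesis genes, also chosen with earlier results of these data known, had medians between 0.14 and 0.29. The Calvin cycle list spread most, with an SD of its mean ratios of 0.38, against 0.18 for the members. The 20 Calvin cycle genes, which fix carbon in the stroma with the ATP and NADPH from the thylakoid, had a median of 0.29. Of these, 17 (85.0%) were above 0 in both hybridizations, against 23.1% of all gene probes. Called higher were 6 of the 20: the Rubisco small subunit genes RBCS1B, RBCS2B and RBCS3B, the Rubisco activase gene RCA, the glyceraldehyde-3-phosphate dehydrogenase gene GAPB and the aldolase gene FBA2. RCA gave 31421 and 30174 in cuc1 cuc2 and 14202 and 13586 in Ler, with ratios of 1.15 and 1.15, above every member of the thylakoid set. TIM and PGK1 were lowest, with means of 0.012 and 0.071.

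In 23 other thylakoid genes (assembly proteins, NDH subunits, cyclic electron flow, light stress proteins) the median was 0.21. Of these, 20 (87.0%) were above 0 in both, against 23.1% of all gene probes. None was called, where 0.502% of all gene probes were called higher. NDHO and PSB28 were highest with means of 0.54 and 0.41, and ATPC2, the second gamma subunit gene, and NDHN were lowest at -0.034 and 0.01. In 17 genes of chlorophyll synthesis the median was 0.16. It was 0.075 with cuc1 cuc2 in Cy5 and 0.22 with cuc1 cuc2 in Cy3. Of these genes, 13 (76.5%) were above 0 in both, against 23.1% of all gene probes. The ratio was below 0 in both for 2, where 22.9% of all gene probes were, and none was called. The highest were CH1, which makes chlorophyll b, at 0.47 and PORC, a light-dependent reductase, at 0.38. GSA1 and HEMB1, of the early steps, were lowest at -0.11 and -0.10. In 22 assembly factors and regulators the median was 0.14. Of these, 18 (81.8%) were above 0 in both, against 23.1% of all gene probes, and none was called. GLK2, an activator of antenna genes, was highest with 0.79 (deposited p 0.00124) and 0.26 (deposited p 0.183), followed by PIF1 at a mean of 0.48 with an error of 0.35. The photoreceptor genes PHYA and PHYB were lowest at 0.0069 and 0.0067.

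The mutated genes and the tissue markers gave the following values. The probe of CUC1 had log2 ratios of 0.021 and -0.11, and that of CUC2 had -0.62 (deposited p 0.0581) and -1.0 (deposited p 0.000802). Where those probes lie relative to the mutations was not examined, so their levels do not check the genotype. All 8 embryo markers passed the background limit in each channel, and their summed signal was 42867 and 45581 in cuc1 cuc2 and 42059 and 43512 in Ler. LEC1 alone gave 27862 and 30133 in cuc1 cuc2 and 27760 and 28979 in Ler, so the sum mostly follows 1 probe. The oil body gene OLEO1, which comes on as embryos mature, was the only embryo marker called. This was 12.5% of the 8, where 0.502% of all gene probes were called higher. OLEO1 gave 1963 and 2135 in cuc1 cuc2 and 1338 and 1366 in Ler (ratios 0.55 and 0.64). The 8 markers had a median of 0.026, and the seed storage protein genes CRA1 and CRU3 had ratios of -0.43 and -0.089 and of 0.17 and -0.19. The regulators FUS3 and ABI3 had means of 0.035 and 0.062. The part of embryo stage in the ratios of the photosynthetic genes was not tested. Of 7 endosperm markers, 4 passed the background limit in every channel, whereas PHE1 and MEA passed it in none, and the summed signal was 1944 and 1833 in cuc1 cuc2 and 1957 and 1584 in Ler. Within that sum SUC5 gave 678 and 790 in cuc1 cuc2 and 641 and 481 in Ler (ratios 0.081 and 0.72). Of 8 seed coat markers, 4 passed the background limit everywhere and BAN, DFR and TT12 in no channel, with sums of 2784 and 2887 in cuc1 cuc2 and 3069 and 2963 in Ler. MUM4 alone gave 1622 and 1865 in cuc1 cuc2 and 1870 and 1793 in Ler. The endosperm and seed coat sums include probes below the background limit.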

How the data were processed

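Labelled cRNA of cuc1 cuc2 and Ler embryos was hybridized to 2 arrays with the dyes exchanged. The authors scanned and quantified them with Agilent Feature Extraction (version 7.5.1, prefixed A in the file headers). The deposited intensity values are the spot brightness with its local background and a background-subtracted, dye-normalized signal for each dye. The deposited log10 ratio is that of red over green signal, and the deposited p-value and error come from the software's error model within an array. By the dye labels each ratio was put on the log2 scale with cuc1 cuc2 on top and averaged over both hybridizations, which share their extracts and count as 1 replicate. The series value table, a log10 ratio per the file headers, equalled the scanner ratios. Control spots were left out. A gene was called when p was under 0.01 with the same sign in both hybridizations.

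The members and lists were chosen with earlier results of these data known. All 48 members could be named. Of the other lists, the called genes and the 2 highest and 2 lowest probes well above background could be named. The embryo markers CRU3, FUS3 and LEC1 were added after their values were seen. RBCS1A of the Calvin cycle list was also named after its values were seen. A listed locus was used where the RefSeq table paired it with its symbol or a description of the protein, which left out 2 loci, and 4 more had no probe in the files used here. All 48 members and 21191 of the 21500 gene probes matched a locus of that table.

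Alternatives were other p limits, filters on dim or marked spots, single hybridizations, and normexp (offset 50), no or plain background correction with loess or median centring in limma 3.58.1 (R 4.3.3). Calculations used Python 3.11.15 with pandas 2.3.3, and the call rule was tested on simulated data. Array signals carry no counts, and precision about the genotype is limited by the single pool of each genotype.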

Additional observations from a re-analysis of the deposited data

How the results depend on the processing

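The median log2 ratio of the 48 members stayed between 0.27 and 0.30 under 4 other normalizations, the filters, the series value table, 1 value for each of 33 paralog groups and the omission of LHCB1.1, and was 0.24 and 0.32 in the single hybridizations. Every member's mean ratio under those 4 normalizations moved by less than its error or spread (192 of 192 values). The count above 0 in both hybridizations was 44 to 45 with loess. Taken 1 hybridization at a time, 45 to 46 members were above 0, a weaker limit whose share over all gene probes is not given. The count in both was 24 with normexp and median centring, which leaves a dye curve in place. The members' medians were then 0.52 with cuc1 cuc2 in Cy5 and 0.012 with cuc1 cuc2 in Cy3, and 11.2% of all gene probes were above 0 in both. At a ratio limit of 0.2, chosen after seeing the data, the count in both was 26.

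Members called higher were 13 at a p limit of 0.05 (1.1% of all gene probes), 1 at 0.001 (0.256%) and 1 with Benjamini-Hochberg adjustment within each array (0.181%), namely LHCB1.1, and 7 to 9 in single hybridizations. None was called lower under any of these settings.

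Without the marked ATPC1 spot only ATPD was left for ATP synthase, and its value of 0.59 stood in place of the median of 0.43. The PSI median of 0.27 was 0.28 with normexp and loess, 0.25 with median centring, 0.28 without background correction and 0.27 with plain subtraction. The other thylakoid list, at 0.21, gave 0.17, 0.19, 0.16 and 0.17 in that order, and the assembly and regulator list, at 0.14, gave 0.12 without background correction. Single hybridizations gave 0.36 to 0.40 for LHCI, 0.22 to 0.36 for the minor antenna, 0.29 to 0.30 for PSI, 0.28 to 0.34 for PSII, 0.14 to 0.17 for assembly and regulators, 0.21 for other thylakoid genes 0.30 to 0.36 for the Calvin cycle and 0.075 to 0.22 for chlorophyll synthesis. No paired analysis was possible because each genotype was a single pool.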
